A study of Mus musculus with 6 samples.

Results

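Nfkb1, Nfkb2, Rela, Relb, Nfkbia, Tnfaip3, Birc3, Cxcl1, Cxcl2 and Icam1 were followed by gene symbol in nuclei sorted from the mouse colon. They are subunits, feedback genes and outputs of the NF-kB pathway, and are 10 of the 31053 genes counted. They were chosen by name, with earlier results of these data known. The 6 libraries comprised 3 Stress libraries, from mice put under restraint every day for 7 days, 1 Dexamethasone library, from mice injected with dexamethasone, a synthetic glucocorticoid, over 7 days, and 2 Control libraries. All mice were C57BL/6J, a common inbred laboratory strain, with the genotype label WT. All nuclei were labelled as nuclei of the enteric nervous system (ENS), the neurons and glia of the gut wall, and were sorted on the DNA stain DAPI and on INTACT, a nuclear envelope tag. The labels do not name the driver of the tag, the age or sex of the mice, the doses, or how many mice went into a library. P-values therefore measure the spread between these libraries, which may be technical. The series title gives the setting as psychological stress, the enteric nervous system and gut inflammation.

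NF-kB proteins are transcription factors that bind DNA as pairs. Rela and Relb carry an activation domain, while Nfkb1 and Nfkb2 encode long precursors that are processed to the DNA-binding subunits p50 and p52. In resting cells Nfkbia, the inhibitor IkappaB-alpha, holds Rela-containing pairs in the cytoplasm, and inflammatory signals have it degraded. Nfkbia and Tnfaip3 (the ubiquitin-editing enzyme A20) are themselves induced by NF-kB and shut it down again. Birc3 (cIAP2) is a ubiquitin ligase of tumour necrosis factor receptor signalling. Cxcl1 and Cxcl2 are chemokines that attract neutrophils, and Icam1 is an adhesion molecule bound by leukocyte integrins. Glucocorticoid receptor is known to restrain NF-kB and to induce Nfkbia in many cells.

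The authors' filtered tables held 11040 barcodes with 58954323 unique molecular identifiers (UMIs, counted transcripts), between 6057994 and 14838057 UMIs per library. Filters on detected genes and mitochondrial transcripts, and removal of 31 predicted doublets, left 3430 nuclei, between 14.9% of the barcodes in Control 2 and 52.7% in Stress 3. Median depth of kept nuclei was 1628.5, 3064 and 3497 UMIs in Stress 1, 2 and 3, 3970 in the Dexamethasone library, and 1802 and 2109 in Control 1 and 2. Clusters were named from marker genes. Of the kept nuclei, 881 were glia-like, 462 neuron-like, 437 epithelium-like, 313 smooth muscle-like and 205 fibroblast-like, so the sort did not yield ENS nuclei alone. The files name Cell Ranger 4.0.0 for Stress and Control and 5.0.1 for Dexamethasone, so treatment and software version cannot be told apart. The 6 libraries shared 17 cell barcodes over all pairs, of which 3 passed the filters in both libraries of a pair. Fkbp5, a glucocorticoid-induced gene, stood at 309 CPM (the UMIs of a gene scaled by the UMI total of the class in that library) in Dexamethasone glia-like nuclei, at 32.2, 132 and 129 CPM in Stress 1, 2 and 3, and at 34.1 and 15.97 CPM in Control 1 and 2.

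In the GRCm38 annotation Nfkb1 lies at chr3:135584655-135691547 on the minus strand, Nfkb2 at chr19:46304320-46312385 on the plus strand, Rela at chr19:5637483-5648130 on the plus strand and Relb at chr7:19606217-19629438 on the minus strand. Nfkbia lies at chr12:55489410-55492647, Tnfaip3 at chr10:19000910-19015657 and Birc3 at chr9:7848699-7873186, all on the minus strand. Cxcl1 at chr5:90891241-90893115, Cxcl2 at chr5:90903871-90905938 and Icam1 at chr9:21015985-21028817 are on the plus strand, and 10756 bases separate Cxcl1 from Cxcl2. Whether reads were counted by strand and over introns is not given in the sources used here. Reads from the overlapping stretches of Nfkb1 with Gm43430, of Nfkb2 with Psd and AC114539.1, and of Icam1 with the antisense gene Gm47079 could therefore not be assigned with certainty.

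Promoter windows of 250 bases before to 50 bases after a start site, from RefSeq on GRCm38.p6, were found for 8 of the 10 members, all but Nfkb1 and Relb. The 7 members shown had a called difference in at least 1 comparison below. Capitals mark matches to the kappaB consensus, the 10-base site bound by NF-kB, searched on both strands. Such matches stood in 1480 of all 32851 promoter windows (4.51%), and in at least 1 window of 5 of the 8 members (Nfkb2, Nfkbia, Tnfaip3, Cxcl1 and Cxcl2). Nfkb2 had 3 windows and Tnfaip3 had 2, of which the second held no match and is not shown. A count by gene and a share by window are therefore unlike measures. Cxcl1 and Cxcl2, the neighbouring chemokine genes, carried the same stretch, GGGAATTTCCC, which holds overlapping matches on the 2 strands. The windows run 5′ to 3′ on each gene's own strand.
Cxcl1, chr5:90890995-90891294, plus strand: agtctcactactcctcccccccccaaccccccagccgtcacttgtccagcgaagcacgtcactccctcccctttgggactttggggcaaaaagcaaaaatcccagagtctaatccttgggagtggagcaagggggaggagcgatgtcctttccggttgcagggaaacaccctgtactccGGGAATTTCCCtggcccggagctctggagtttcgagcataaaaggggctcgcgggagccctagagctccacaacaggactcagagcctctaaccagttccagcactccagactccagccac
Cxcl2, chr5:90903649-90903948, plus strand: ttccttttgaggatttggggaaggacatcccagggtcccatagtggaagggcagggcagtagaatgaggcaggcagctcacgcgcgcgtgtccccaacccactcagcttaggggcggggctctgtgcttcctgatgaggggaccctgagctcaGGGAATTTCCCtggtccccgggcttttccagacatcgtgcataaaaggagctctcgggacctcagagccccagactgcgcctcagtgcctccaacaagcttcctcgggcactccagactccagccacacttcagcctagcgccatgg
Tnfaip3, chr10:19015361-19015660, minus strand: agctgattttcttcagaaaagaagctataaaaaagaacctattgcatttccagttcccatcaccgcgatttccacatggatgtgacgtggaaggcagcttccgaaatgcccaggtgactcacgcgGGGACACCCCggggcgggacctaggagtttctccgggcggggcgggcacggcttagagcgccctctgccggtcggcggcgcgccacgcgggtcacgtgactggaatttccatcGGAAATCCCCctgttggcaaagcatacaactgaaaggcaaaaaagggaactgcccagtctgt
Nfkbia, chr12:55492598-55492897, minus strand: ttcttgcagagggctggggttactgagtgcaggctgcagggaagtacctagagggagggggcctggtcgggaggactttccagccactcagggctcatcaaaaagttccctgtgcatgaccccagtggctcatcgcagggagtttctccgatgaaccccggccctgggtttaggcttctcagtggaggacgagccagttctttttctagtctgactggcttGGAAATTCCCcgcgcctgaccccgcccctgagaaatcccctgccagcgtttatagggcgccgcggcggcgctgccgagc
Birc3, chr9:7873121-7873420, minus strand: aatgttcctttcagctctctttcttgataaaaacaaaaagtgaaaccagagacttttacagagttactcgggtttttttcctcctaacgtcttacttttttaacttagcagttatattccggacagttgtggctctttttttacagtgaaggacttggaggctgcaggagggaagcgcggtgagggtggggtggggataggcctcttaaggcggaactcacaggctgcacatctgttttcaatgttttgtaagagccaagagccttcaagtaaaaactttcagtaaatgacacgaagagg
Icam1, chr9:21015690-21015989, plus strand: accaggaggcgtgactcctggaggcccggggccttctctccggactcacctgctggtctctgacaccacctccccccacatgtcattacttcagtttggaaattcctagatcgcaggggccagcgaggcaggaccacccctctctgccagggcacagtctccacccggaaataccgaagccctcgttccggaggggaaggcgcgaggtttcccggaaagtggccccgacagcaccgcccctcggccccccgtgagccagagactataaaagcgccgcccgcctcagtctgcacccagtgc
Rela, chr19:5637291-5637590, plus strand: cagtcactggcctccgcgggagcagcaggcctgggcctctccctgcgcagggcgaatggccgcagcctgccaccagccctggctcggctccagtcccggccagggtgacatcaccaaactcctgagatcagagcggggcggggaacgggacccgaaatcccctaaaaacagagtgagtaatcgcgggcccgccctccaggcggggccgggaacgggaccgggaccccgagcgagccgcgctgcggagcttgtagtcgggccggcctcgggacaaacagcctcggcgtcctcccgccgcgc
The windows of Birc3, Icam1 and Rela held no match to the consensus, which says only that these letters are not in these 300 bases. The Nfkbia match began 29 bases before the start site and those of Tnfaip3 125 and 12 bases before it.

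With Dexamethasone, glia-like nuclei had higher levels of Nfkb1, Rela, Relb, Tnfaip3, Birc3 and both chemokines than in Control. Of these, only Nfkb1 and Birc3 were called in every alternative for the whole class. Of the 10 members, 7 passed the test and all 7 were higher, among them Birc3 (7.71-fold), Nfkb1 (5.45-fold) and Tnfaip3 (4.54-fold). In this comparison 469 of 7699 genes passed (6.09%), 5.44% as higher. Nfkb2, Nfkbia and Icam1 did not pass. The members' median log2 fold change was 2.31, against -0.05 over all genes tested. Cxcl2, which passed, and Nfkb2 met the filter on low counts only through the Dexamethasone library, and both enter this median. Tnfaip3, Cxcl1 and Icam1 met that filter only through treated libraries. Dexamethasone has 1 library, whose spread is assumed to equal that of the others.

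Among the subunits, Nfkb1, the p105 and p50 precursor, stood at 1839 CPM in Dexamethasone glia-like nuclei, at 438, 816 and 474 CPM in Stress 1, 2 and 3, and at 352 and 365 CPM in Control 1 and 2. The Dexamethasone library lay above all others, and the 3 Stress libraries lay above both Control libraries. How many of all genes had this order of groups is not given here. Dexamethasone exceeded Control by 2.45 ± 0.31 on the log2 scale (edgeR quasi-likelihood test, Benjamini-Hochberg adjusted p = 6.45e-05). The 1250 Nfkb1 UMIs of the Dexamethasone library came from 89 of 114 nuclei. The richest nucleus held 262 of them, and without it the level was 1454 CPM. The Control level rested on 165 and 160 UMIs, in which no nucleus held more than 8. In Stress 1 the richest nucleus held 31 of 136 UMIs. Without the richest nucleus of each library, Stress 1, 2 and 3 had 338, 722 and 419 CPM, and Control 1 and 2 had 335 and 351 CPM. Stress 1 then lay between the Control libraries.

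Relb, the partner subunit of the alternative pathway, had 160.4 CPM in the Dexamethasone library, 93.5, 81.6 and 58.4 CPM in Stress 1, 2 and 3, and 46.9 and 50.2 CPM in Control 1 and 2. Its levels fell in the same order of groups as Nfkb1, without overlap, again with no share of all genes to set beside it. The Dexamethasone difference was 1.81 ± 0.34 on the log2 scale (edgeR quasi-likelihood adjusted p = 0.00247). Its call was lost after thinning to equal totals (edgeR adjusted p = 0.0604) and under a stricter filter of nuclei (0.161). Rela, the main activating subunit, had 113 CPM in the Dexamethasone library, 64.5, 60.7 and 61.8 CPM in Stress 1, 2 and 3, and 51.2 and 29.7 CPM in Control 1 and 2, a Dexamethasone difference of 1.56 ± 0.37 (edgeR adjusted p = 0.0136). Rela lost its call without Control 2 (edgeR adjusted p = 0.104), after thinning (0.0983), under the stricter filter (0.201) and by DESeq2 (DESeq2 adjusted p = 0.141). Nfkb2, the p100 and p52 precursor, was seen with 16 UMIs in the Dexamethasone library, 5, 9 and 12 in Stress 1, 2 and 3, and 2 in each Control library. At 23.5 CPM in Dexamethasone against 4.27 and 4.56 CPM in Control, its log2 difference of 2.44 ± 0.90 did not pass (edgeR adjusted p = 0.13).

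Birc3 showed the smallest adjusted p of the 10 members. It had 587 CPM in the Dexamethasone library, 80.6, 147 and 181 CPM in Stress 1, 2 and 3, and 55.5 and 107 CPM in Control 1 and 2. The Dexamethasone library stood above every other library, while Stress 1 fell between the 2 Control libraries. The Dexamethasone difference was 2.95 ± 0.36 on the log2 scale (edgeR adjusted p = 4.85e-05). Tnfaip3, the A20 feedback enzyme, had 80.9 CPM in the Dexamethasone library, 19.3, 37.7 and 36.7 CPM in Stress 1, 2 and 3, and 17.1 and 20.5 CPM in Control 1 and 2. Its Dexamethasone difference was 2.18 ± 0.45 (edgeR adjusted p = 0.00519). It was not called after thinning to equal totals (edgeR adjusted p = 0.0569), under the stricter filter of nuclei (0.175) or by DESeq2 (DESeq2 adjusted p = 0.092).

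Nfkbia, the inhibitor that glucocorticoids are known to induce, was the feedback gene that did not pass in glia. It had 193 CPM in the Dexamethasone library, 90.2, 123 and 120.3 CPM in Stress 1, 2 and 3, and 93.9 and 183 CPM in Control 1 and 2. Control 2 came close to the Dexamethasone library, and the 3 Stress libraries lay within or just below the Control range. The Dexamethasone difference was 0.58 ± 0.33 on the log2 scale (edgeR adjusted p = 0.373).

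The chemokines rested on few counts in every library. Cxcl1 had 38 UMIs there, 2, 4 and 22 in Stress 1, 2 and 3, and 2 in each Control library, or 55.9 CPM against 6.45, 8.37 and 25.2 CPM in Stress and 4.27 and 4.56 CPM in Control. Its Dexamethasone difference was 3.68 ± 0.76 on the log2 scale (edgeR adjusted p = 0.00483), and its call was lost under the stricter filter of nuclei (0.0897). Cxcl2 had 26 UMIs in the Dexamethasone library, 1, 2 and 5 in Stress 1, 2 and 3, and none in Control. It met the filter on low counts only through the Dexamethasone library, where it was high, so its call is not independent of that filter. Its Dexamethasone level of 38.3 CPM was at least 11.6-fold higher than Control, taking 3 counts over the Control group as the floor (edgeR adjusted p = 0.0112). Without Control 2 the Cxcl2 call was lost (edgeR adjusted p = 0.0658). By DESeq2 only Nfkb1, Relb and Birc3 were called, and under the stricter filter of nuclei only Nfkb1 and Birc3. Neither chemokine was called in either alternative, but Cxcl2 had no adjusted p in both and Cxcl1 had none by DESeq2. Few nuclei carried these counts: 16 of the 38 Cxcl1 UMIs and 12 of the 26 Cxcl2 UMIs came from 1 nucleus each. Icam1 had 23.5 CPM in the Dexamethasone library, 9.67, 25.1 and 13.7 CPM in Stress 1, 2 and 3, and 2.13 and 15.97 CPM in Control, and did not pass (edgeR adjusted p = 0.396).

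**Figure D1:**
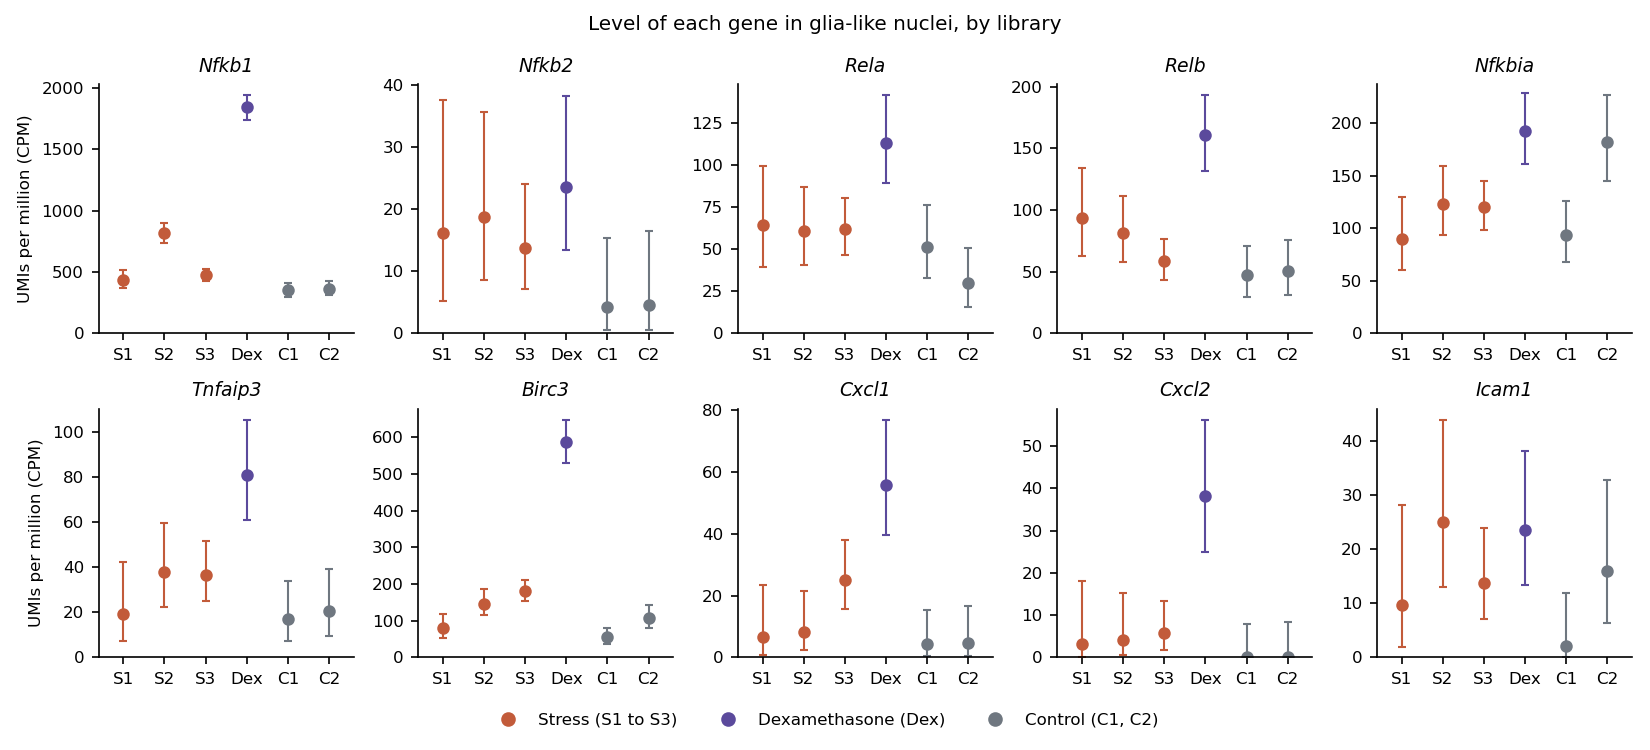
Level of each member in glia-like nuclei, in CPM, for the 3 Stress libraries, the Dexamethasone library and the 2 Control libraries; each point is 1 library and bars are exact 95% Poisson intervals of the UMIs, which cover counting error only. Nfkb1 (1839 CPM) and Birc3 (587 CPM) of the Dexamethasone library stand far above the Control libraries, while Nfkbia (193 CPM) lies beside Control 2 (183 CPM).

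Markers of some other cells were higher in the Dexamethasone glia-like nuclei, and those of others were not. The summed level of the 10 smooth muscle markers, all detected, was 758 CPM there, 203, 216 and 372 CPM in Stress 1, 2 and 3, and 149 and 194 CPM in Control. For the 7 lymphatic endothelium markers, all detected, the sums were 218 CPM in Dexamethasone, 90.2, 103 and 149 CPM in Stress, and 59.7 and 59.3 CPM in Control. The 5 tuft cell markers, all detected, summed to 282 CPM in Dexamethasone, 35.5, 92.1 and 109 CPM in Stress, and 132 and 79.9 CPM in Control. The 10 fibroblast markers, all detected, instead summed to 144 CPM in Dexamethasone, 248, 245 and 188 CPM in Stress, and 228 and 281 CPM in Control. The 12 epithelium markers, all detected, summed to 447 CPM in Dexamethasone, 474, 726 and 350 CPM in Stress, and 480 and 844 CPM in Control. The part of these lists in the member differences was not tested. Of the 10 macrophage markers, Cd163 and Itgam were at 0 in glia-like nuclei, and the list summed to 10.3 CPM in Dexamethasone, 3.22 to 14.9 CPM in Stress and 2.13 and 6.85 CPM in Control.

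In glia-like nuclei of stressed mice no member passed the test against Control. Of the 10 members 6 had counts enough to be tested, and 137 of 6545 genes passed (2.09%). Nfkb1 (0.64 ± 0.25 on the log2 scale), Birc3 (0.76 ± 0.33), Tnfaip3 (0.75 ± 0.45), Relb (0.59 ± 0.30) and Rela (0.57 ± 0.31) had positive values and Nfkbia a negative one (-0.32 ± 0.27). Their edgeR quasi-likelihood adjusted p-values ran from 0.273 for Nfkb1 to 0.681 for Nfkbia. At an unadjusted p under 0.05 there were 2 members, Nfkb1 and Birc3, against 13.1% of all genes, and DESeq2 also called 0 members. The members' median was 0.61, against -0.01 over all genes tested. The sign of Nfkbia turned without Control 2 (0.22, edgeR adjusted p = 0.86). Birc3 passed where barcodes over the mitochondrial limit were counted too (1.02, edgeR adjusted p = 0.0241). No member passed under Stress in cluster 0, 1 or 9 of the glia-like nuclei described below, where 0.499%, 3.45% and 0.479% of genes did. Within Stress 3, 55 of the 158 Birc3 UMIs came from 1 nucleus. In simulated counts of this comparison, 30% of genes changed 2-fold and 91% of genes changed 4-fold were recovered. The changed genes were drawn without the lowest levels of the genes tested.

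**Figure D2:**
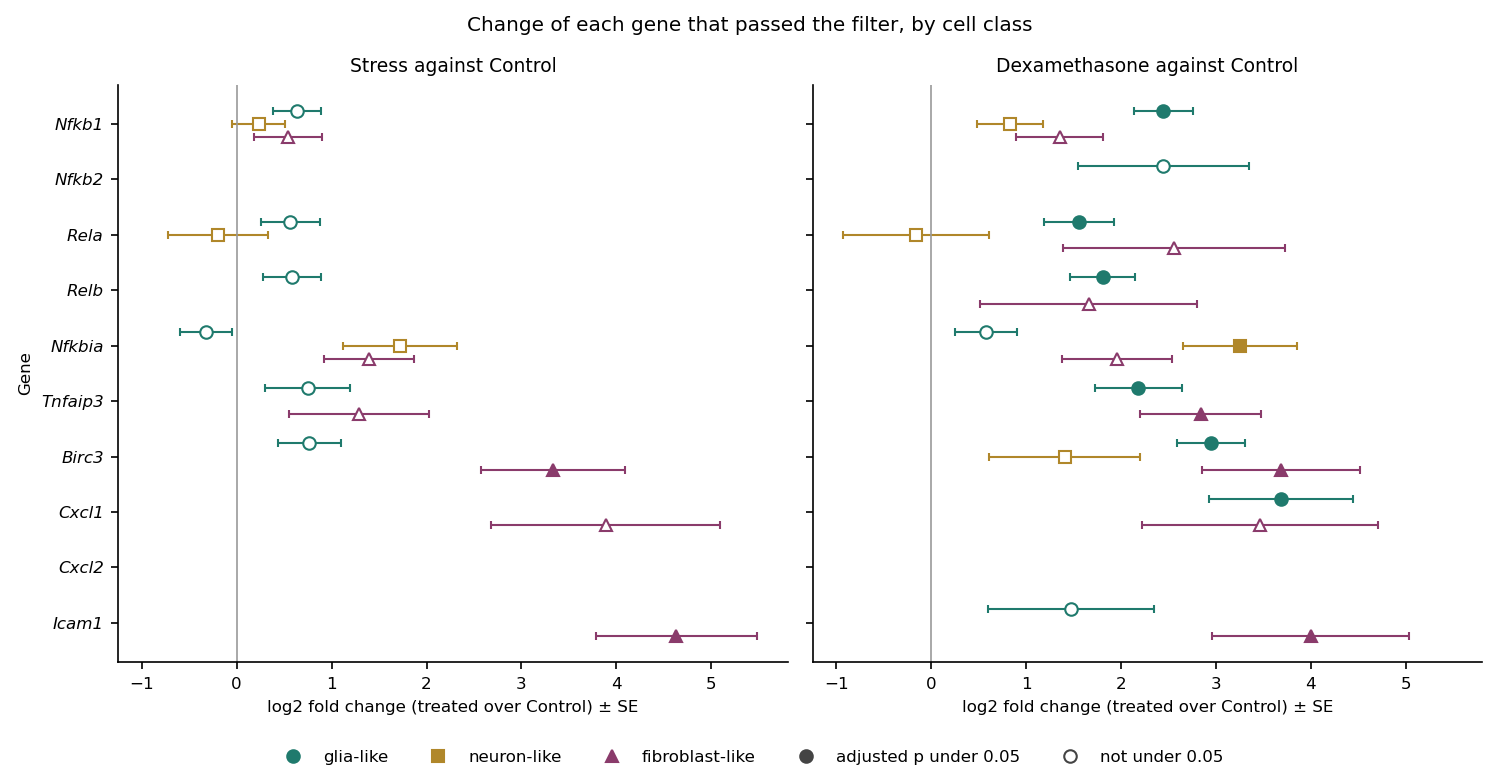
Log2 fold change with its standard error for each tested member, Stress over Control and Dexamethasone over Control, in glia-like, neuron-like and fibroblast-like nuclei, from edgeR; filled points passed an adjusted p of 0.05. Cxcl2 in glia-like nuclei is left out because both Control libraries had no UMI. The Dexamethasone values of glia-like nuclei reach 2.95 for Birc3 and 2.45 for Nfkb1, against 0.76 and 0.64 for Stress.

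Set directly against Stress, the Dexamethasone glia-like nuclei were higher for 4 members, Nfkb1, Relb, Tnfaip3 and Birc3, where 242 of 7699 genes passed (3.14%), 2.90% as higher. Birc3 differed by 2.19 ± 0.31 and Nfkb1 by 1.82 ± 0.27 on the log2 scale (edgeR adjusted p = 0.000356 and 0.000702). Relb differed by 1.23 ± 0.30 and Tnfaip3 by 1.44 ± 0.38 (edgeR adjusted p = 0.0283 and 0.0464). The Relb call was lost without Stress 3 (edgeR adjusted p = 0.103), and the Tnfaip3 call was lost without Stress 1 (0.0901), Stress 2 (0.0749) or Stress 3 (0.0688). Cxcl1 came close in the same fit (1.96 ± 0.55, edgeR adjusted p = 0.0598), and passed without Stress 3 at a log2 value of 2.99 (0.02), without Control 1 (0.0458) or without Control 2 (0.0424).

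Glia-like nuclei fell into cluster 0, led by Ttn, Myh8, Col11a1, Frzb and Sox10, cluster 1, led by Rnf122, Nr4a3, Nr4a2 and Arih1, and cluster 9, led by Col28a1, Rasgef1c and Kcna1. Ttn and Myh8 are genes of striated muscle and go against the name of cluster 0. At Leiden resolution 1.5 a cluster of 199 nuclei, named glia by its markers, was led by Ttn, Myh8 and Neb. Of 12 striated muscle genes, Ttn, Neb and Myh8 among them, chosen after the clusters were seen, the 19 Dexamethasone nuclei of cluster 0 held 448 UMIs, of which 447 came from 1 nucleus with 6615 UMIs in all and 1 UMI of the glia markers. The same genes had 2, 0 and 0 UMIs in cluster 0 of Stress 1, 2 and 3, and 5 and 2 in Control 1 and 2. Without that nucleus the same 7 members of all glia-like nuclei were called for Dexamethasone against Control. Their shares of the class differed between groups: cluster 1 held 83 of the 114 Dexamethasone nuclei, 24 of 124, 61 of 118 and 113 of 184 Stress nuclei, and 40 of 203 and 25 of 138 Control nuclei. Tnfaip3, Cxcl1, Cxcl2 and Icam1 were among the variable genes used for clustering and the other members were not. In cluster 1 alone Nfkb1 had 2270 CPM in the Dexamethasone library, 657, 1052 and 547 CPM in Stress, and 331 and 571 CPM in Control. There Nfkb1 (2.47 ± 0.34), Relb (1.97 ± 0.51) and Birc3 (1.89 ± 0.38) were higher in Dexamethasone than in Control, among 290 of 5076 genes that passed (5.71%; edgeR adjusted p between 6.85e-06 and 0.0133).

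Birc3 was also higher in cluster 9. There it had 1024 CPM in the Dexamethasone library, 98.7, 45.6 and 39.2 CPM in Stress 1, 2 and 3, and 69.2 and 19.2 CPM in Control, a Dexamethasone difference of 4.31 ± 0.62 (edgeR adjusted p = 0.000212). Nfkb1 was also higher in cluster 9 (2.14 ± 0.47, edgeR adjusted p = 0.0223), where 13 of 1984 genes passed (0.655%). These values rested on 68 Birc3 UMIs and 74 Nfkb1 UMIs in the 12 Dexamethasone nuclei of the cluster. Birc3 met the filter on low counts there only through the Dexamethasone library.

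Cluster 0 went the other way in sign. There Nfkb1 had 201 CPM in the Dexamethasone library, 380.3, 459 and 335 CPM in Stress, and 393 and 316 CPM in Control, and none of 4 tested members passed against Control, where 61 of 4965 genes did (1.23%). The log2 values were -0.96 ± 0.40 for Nfkb1, -1.32 ± 1.13 for Birc3 and -2.39 ± 1.28 for Relb, from 19 Dexamethasone nuclei. Without the nucleus rich in striated muscle transcripts they were -1.07 ± 0.42, -1.21 ± 1.14 and -2.28 ± 1.29, no tested member passed, and 27 of 4882 genes did. The Dexamethasone effect in cluster 1 exceeded that in cluster 0 by 3.46 ± 0.46 for Nfkb1, 4.38 ± 1.19 for Relb and 3.13 ± 0.93 for Birc3 (edgeR adjusted p = 9.73e-11, 0.0108 and 0.0268), among 196 of 5457 genes that passed (3.59%). Relb and Birc3 lost this call without Control 1 (edgeR adjusted p = 0.0716 and 0.0854) or Control 2 (0.085 and 0.223). The nuclei were assigned to these clusters from their own transcripts, in the same libraries.

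**Figure D3:**
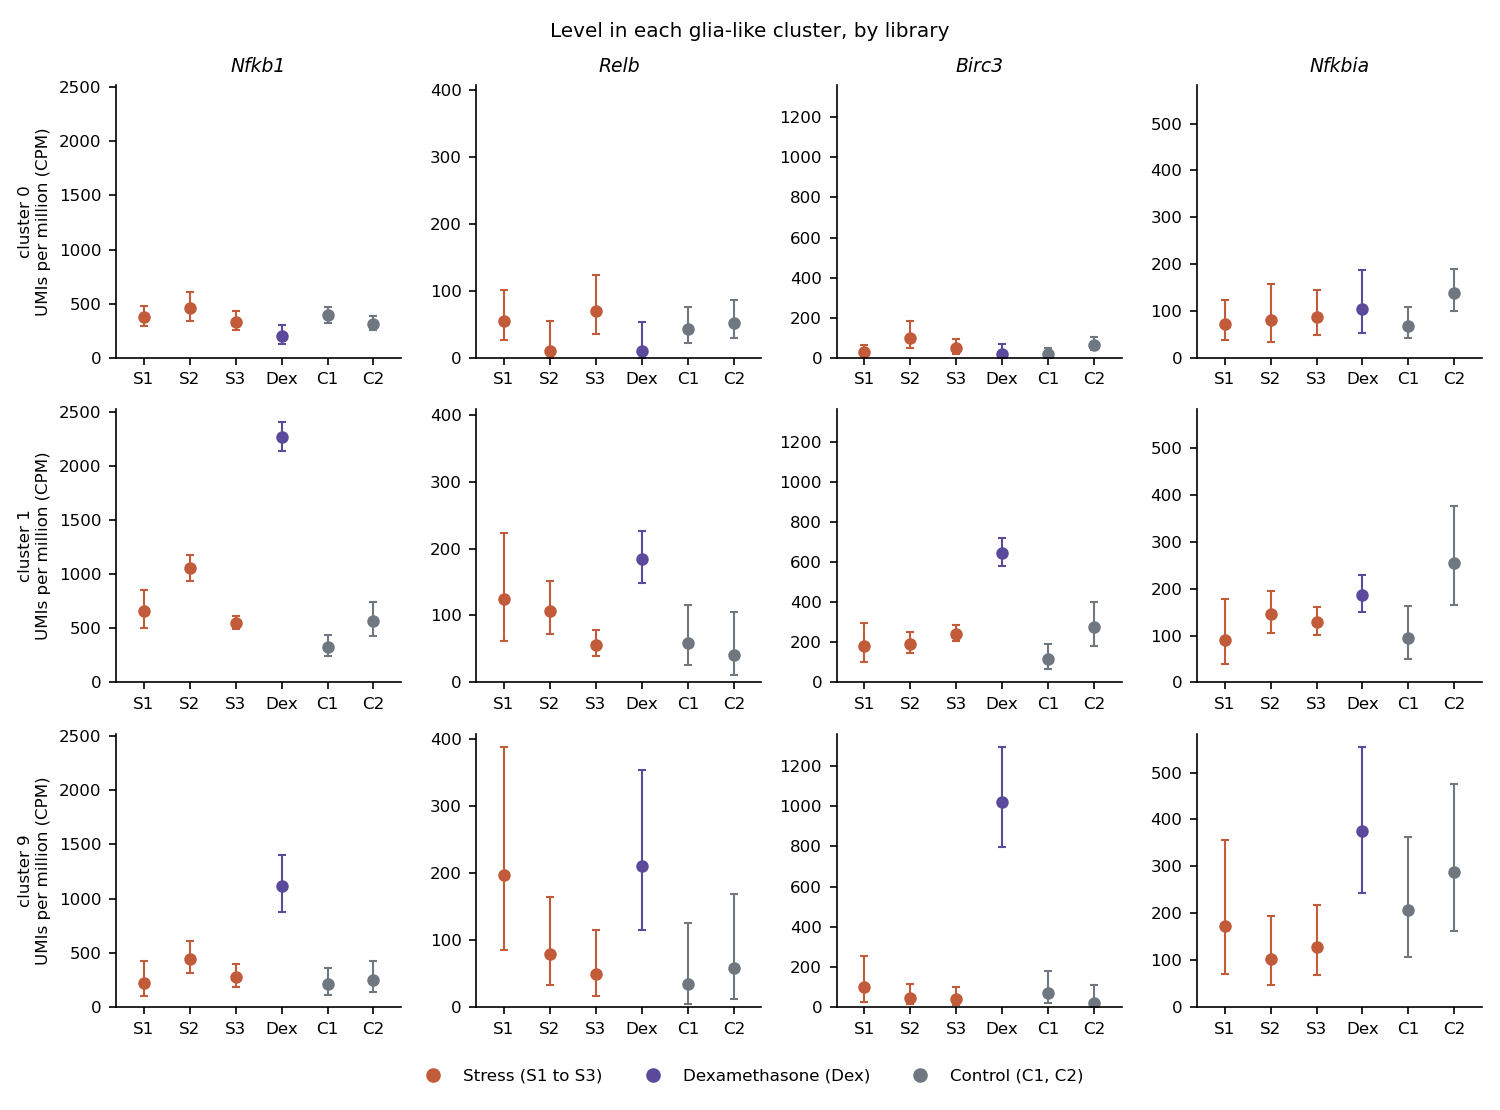
Level of Nfkb1, Relb, Birc3 and Nfkbia in each library within glia-like clusters 0, 1 and 9, in CPM, with exact 95% Poisson intervals. Nfkb1 of the Dexamethasone library reaches 2270 CPM in cluster 1 and 201 CPM in cluster 0.

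Beyond the 10 members, 117 other genes of the pathway were listed by role. In Dexamethasone glia-like nuclei 55 of them had counts enough to be tested. Against Control 8 of the 55 were higher (14.5%, against 5.44% of all genes tested) and none lower. Of 20 tested adaptors and kinases 3 were higher: Ripk1, a kinase of death receptor signalling (2.13 ± 0.32 on the log2 scale), Birc2, the paralogue of Birc3 (1.19 ± 0.31), and Map3k8, a kinase bound by p105 (1.69 ± 0.48). Rel, the remaining subunit, was higher (1.54 ± 0.31), as were 2 of 14 tested inhibitors, Bcl3 (2.01 ± 0.50) and Nlrc5 (2.18 ± 0.31). Of 13 tested targets Il6, the cytokine, and Ptgs2, the inducible cyclooxygenase, were higher. Il6 had 81 UMIs in the Dexamethasone library, 4, 8 and 15 in Stress, and 3 and 1 in Control (log2 difference 4.77 ± 0.55). None of the 1 ligand and 6 receptors tested passed. All values named here had an edgeR quasi-likelihood adjusted p between 3.29e-05 for Il6 and 0.0422 for Map3k8.

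Under Stress 47 genes of the same lists were tested in glia-like nuclei, of which 3 were higher and 1 lower (8.51%, against 2.09% of all genes tested). Ripk1 (1.46 ± 0.27) and Nlrc5 (1.56 ± 0.26) were higher on the log2 scale, and Gadd45b, a stress-induced target, was lower (-1.51 ± 0.30; edgeR adjusted p = 0.0122, 0.00774 and 0.0175). Ptgs2 had 8, 14 and 54 UMIs in Stress 1, 2 and 3, 15 in the Dexamethasone library and none in Control (edgeR adjusted p = 0.00774 for Stress). Against Stress, 2 of 55 tested genes were higher in Dexamethasone glia-like nuclei (3.64%, against 2.90% of all genes tested), Il6 (3.01 ± 0.40) and Gadd45b (2.05 ± 0.33; edgeR adjusted p = 0.000234 and 0.00142).

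In neuron-like nuclei the members were low. Cluster 20, 65 nuclei led by Penk, Kctd16 and Tac1, stayed unnamed and was not counted in this class. At Leiden resolution 0.5 a cluster led by Penk and Tac1 was named neuron. With cluster 20 counted as neuron-like, no member was called for Dexamethasone against Control. With Dexamethasone 4 of the 10, Nfkb1, Rela, Nfkbia and Birc3, had counts enough to be tested, and Nfkbia was the 1 called. Nfkbia had 57.1 CPM in the Dexamethasone library, 17.0, 18.6 and 19.5 CPM in Stress 1, 2 and 3, and 6.91 and 2.93 CPM in Control 1 and 2. It met the filter on low counts only through treated libraries. Against Control the Dexamethasone difference was 3.25 ± 0.60 on the log2 scale (edgeR adjusted p = 0.0346), where 41 of 8506 genes passed (0.482%). The counts behind it were small: 28 UMIs in 7 of 64 Dexamethasone nuclei, 16 of them in 1 nucleus, against 4 and 1 UMIs in Control. Without the richest nucleus of each library the value was 2.76 (edgeR adjusted p = 0.275), and without Control 1 or Control 2 the call was lost (0.124 and 0.156). Of the 28 UMIs, 23 came from cluster 13, led by Vip, which had 7 nuclei in that library. In the Dexamethasone library 42 of the 64 neuron-like nuclei belonged to cluster 16, led by Nmu, against 2, 12 and 10 nuclei in Stress and 8 and 6 in Control.

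Of the members tested in neuron-like nuclei, Nfkb1, Rela and Birc3 did not pass. Among the 6 not tested, Tnfaip3 had 8 UMIs in the Dexamethasone library and 2 in all of Control, a counting ratio of 7.51 (95% interval 1.498 to 72.6). Nfkb1 had 143 CPM in the Dexamethasone library, 108, 70.5 and 103 CPM in Stress 1, 2 and 3, and 89.8 and 52.8 CPM in Control, a Dexamethasone difference of 0.84 ± 0.35 (edgeR adjusted p = 0.351). Birc3 had 28.6 CPM in Dexamethasone, 5.67, 8.35 and 21.1 CPM in Stress, and 8.64 and 11.7 CPM in Control. Rela stood between 8.79 and 22.5 CPM in all libraries. Stress against Control gave no call among 3 tested members or among all 7518 genes (0.00%), of which 760 (10.1%) had an unadjusted p under 0.05, Nfkbia among them (1.72 ± 0.60, edgeR adjusted p = 0.368). DESeq2 called 0 members and 14 genes. Against Stress, Dexamethasone neuron-like nuclei differed in Nfkbia by 1.55 ± 0.43, which did not pass (edgeR adjusted p = 0.258), where 7 of 8506 genes did (0.0823%).

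The Dexamethasone effect on Nfkbia was smaller in glia-like than in neuron-like nuclei, by -2.60 ± 0.71 on the log2 scale (edgeR adjusted p = 0.0438), where 140 of 9568 genes passed (1.46%), 0.523% as lower. The call was lost without the richest nucleus of each library (edgeR adjusted p = 0.341) and without Control 2 (-1.72, edgeR adjusted p = 0.515). For Nfkb1 the difference was 1.54 ± 0.48 in favour of glia and did not pass (edgeR adjusted p = 0.0962). Under Stress no member differed between the 2 classes, where 7 of 8249 genes passed (0.0849%). Glia markers summed to 394 CPM in Dexamethasone neuron-like nuclei, 159, 207 and 335 CPM in Stress, and 136 and 176 CPM in Control, with 12 of 12 detected. Smooth muscle markers, 10 of 10 detected, summed to 1046 CPM in Dexamethasone neuron-like nuclei, 238, 350.0 and 529 CPM in Stress, and 287 and 237 CPM in Control. The part of either list was not tested.

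Fibroblast-like nuclei, clusters 10 and 18, were the class in which members passed under Stress, namely Icam1 and Birc3. Both met the filter on low counts only through the Stress libraries, where they were high, so their calls are not independent of that filter. Icam1, the leukocyte adhesion molecule, had 226, 424 and 212 CPM in Stress 1, 2 and 3 (16, 37 and 23 UMIs), 172 CPM in the Dexamethasone library (16 UMIs), and 0 and 18.4 CPM in Control 1 and 2 (0 and 1 UMI). Birc3 had 141, 286 and 212 CPM in Stress, 258 CPM in the Dexamethasone library, and 19.1 and 18.4 CPM in Control. In both genes every treated library lay above both Control libraries, an order whose share among all genes is not given here. Against Control, Stress differed by 4.63 ± 0.85 for Icam1 and 3.33 ± 0.76 for Birc3 on the log2 scale (edgeR adjusted p = 0.0144 and 0.045), among 25 of 1725 genes that passed (1.45%), 1.16% as higher. With 1 Icam1 UMI and 2 Birc3 UMIs in all of Control, the counting ratios were 30.4 (95% interval 5.29 to 1216) and 11.6 (3.07 to 98.0).

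These 2 calls rested on few nuclei and on each Control library. In Stress 1, 2 and 3 the richest nucleus held 7 of 16, 20 of 37 and 10 of 23 Icam1 UMIs. Without Control 1 the edgeR adjusted p was 0.0933 for Icam1 and 0.166 for Birc3, and without Control 2 it was 0.052 and 0.193. Without Stress 2 it was 0.122 for Icam1. Mesothelium markers moved with Stress in this class, summing to 141, 195 and 534 CPM in Stress 1, 2 and 3, to 0 in the Dexamethasone library, and to 19.1 and 0 CPM in Control, with 5 of 5 detected. Lymphatic endothelium markers, 7 of 7 detected, summed to 226, 22.9 and 157 CPM in Stress, 386 CPM in Dexamethasone, and 95.5 and 147 CPM in Control. The part of either list was not tested. Of 10 macrophage markers 7 were at 0 in this class (Cd163, Adgre1, Cd68, C1qa, C1qb, Lyz2 and Itgam). Markers of B and plasma cells reached 3935 CPM in Control 1, against 0 in Control 2.

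In Dexamethasone fibroblast-like nuclei 3 of 8 tested members were higher than in Control, where 68 of 2843 genes passed (2.39%), 2.18% as higher. These 3 met the filter on low counts only through treated libraries. Tnfaip3 had 408 CPM in the Dexamethasone library, 98.7, 183 and 157 CPM in Stress, and 76.4 and 36.8 CPM in Control, a Dexamethasone difference of 2.84 ± 0.64 (edgeR adjusted p = 0.00698). Birc3 differed by 3.69 ± 0.83 and Icam1 by 3.996 ± 1.037 (edgeR adjusted p = 0.0069 and 0.0259). All 3 lost their call without Control 1 (edgeR adjusted p = 0.0675, 0.127 and 0.295) and without Control 2 (0.161, 0.147 and 0.147). Nfkbia had 365 CPM in Dexamethasone, 254, 298 and 239.6 CPM in Stress, and 134 and 55.2 CPM in Control, and was not called in either treatment. Cxcl1 had 118 CPM in Dexamethasone, 212, 57.3 and 239.6 CPM in Stress, and 0 and 18.4 CPM in Control, and was not called. Of the other pathway genes Nfkbiz, an atypical inhibitor, was higher in Dexamethasone (2.44 ± 0.54, edgeR adjusted p = 0.00616).

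**Figure D4:**
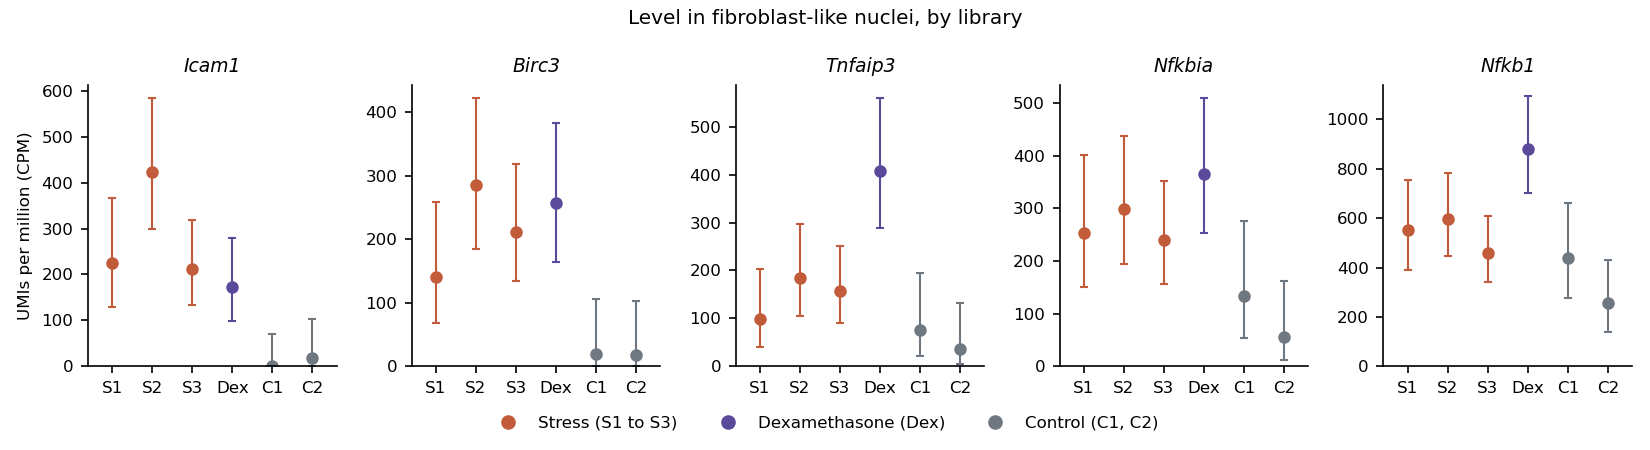
Level of Icam1, Birc3, Tnfaip3, Nfkbia and Nfkb1 in fibroblast-like nuclei of each library, in CPM, with exact 95% Poisson intervals. Icam1 lies between 212 and 424 CPM in the 3 Stress libraries and at 0 and 18.4 CPM in the 2 Control libraries.

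No member's effect differed by test between fibroblast-like and glia-like nuclei, in which 0.460% of genes passed for Stress and 0.550% for Dexamethasone. For Stress the difference was 4.04 ± 1.37 for Icam1 and 2.71 ± 0.92 for Birc3 (edgeR adjusted p = 0.317 and 0.326). The difference of Icam1 and Birc3 in stressed fibroblast-like nuclei is thus not shown to be larger than in glia-like nuclei.

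Each member had its own order among 7 of the named classes, and unnamed clusters were not ranked. Of those, cluster 17, led by the immune genes Dock2, Ptprc and F13a1, averaged 918 ± 778 CPM of Nfkb1 (76 nuclei). Cluster 12, led by Psca, averaged 655 ± 1186 CPM of Nfkbia (113 nuclei). Over the 6 libraries and within the 7 classes, Nfkb1 averaged 714 ± 577 CPM in glia-like nuclei (SD, n = 6), followed by 531 ± 207 in fibroblast-like, 455 ± 551 in vascular endothelium-like (38 nuclei in all), 309 ± 87.2 in lymphatic endothelium-like, 219.9 ± 121 in smooth muscle-like, 193 ± 125 in epithelium-like and 94.5 ± 31.4 in neuron-like nuclei. Neighbours in this order overlapped within their spread. The glia-like average is raised by the Dexamethasone library, and the median over libraries was 456 CPM in glia-like and 505 CPM in fibroblast-like nuclei. Among the 7 classes Nfkbia was highest in lymphatic endothelium-like nuclei, at 387 ± 240.4 CPM, against 134 ± 43.9 in glia-like and 20.3 ± 19.2 in neuron-like nuclei. Icam1 was likewise highest there, at 310.1 ± 194 CPM, against 235 ± 349 in vascular endothelium-like, 175 ± 156 in fibroblast-like and 15.03 ± 8.62 in glia-like nuclei. Relb was highest in epithelium-like nuclei, at 171 ± 87.6 CPM, against 81.8 ± 42.6 in glia-like nuclei. Cxcl1 was highest in fibroblast-like nuclei, at 107 ± 100.4 CPM, against 17.5 ± 20.4 in glia-like nuclei, and had no UMI in smooth muscle-like nuclei. Neuron-like nuclei were last or next to last among 7 classes for all 10 members but Cxcl2, of which 3 classes had no UMI.

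Of the other classes, smooth muscle-like and lymphatic endothelium-like nuclei were tested and gave no called member. Counts allowed a test of Nfkb1 alone in the smooth muscle-like class, and of no member under Stress and 3 members with Dexamethasone in the lymphatic class. Epithelium-like, vascular endothelium-like, cycling-like and enteroendocrine-like nuclei numbered under 10 in at least 1 library and were not tested. In smooth muscle-like nuclei Nfkb1 had 458 CPM in Dexamethasone, 147, 214 and 206 CPM in Stress, and 144 and 149.9 CPM in Control (1.55 ± 0.39, edgeR adjusted p = 0.0749), where 0.903% of genes passed, and 0.353% under Stress. In lymphatic endothelium-like nuclei Nfkbia had 819 CPM in Dexamethasone, 220.1, 497 and 360.1 CPM in Stress, and 249 and 179.8 CPM in Control (1.95 ± 0.59, edgeR adjusted p = 0.237), where 0.281% of genes passed. Under Stress none of 524 genes passed in that class (0.00%), and 44 (8.40%) had an unadjusted p under 0.05. Summed over all kept nuclei, without regard to class, Nfkb1 was higher in Dexamethasone (1.86 ± 0.23, edgeR adjusted p = 0.034), where 30 of 13507 genes passed (0.222%). With Stress no gene passed in that sum (0.00%), 758 of 12291 (6.17%) having an unadjusted p under 0.05, and Icam1 had the smallest p among the members (2.01 ± 0.39, edgeR adjusted p = 0.368).

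Members were found together in the same glia-like nuclei more often in the Dexamethasone library. Higher levels of single members raise such a share by themselves. Whether the share exceeded what those levels give was not tested. Each nucleus was thinned to 1000 UMIs to equalise depth. At least 2 of the 10 members were then seen in 43.1% of 109 Dexamethasone nuclei (exact 95% interval 33.7 to 53.0), in 12.2%, 15.8% and 15.2% of Stress nuclei (98, 114 and 178 nuclei) and in 5.75% and 10.4% of Control nuclei (174 and 135). Intervals cover counting error between nuclei of a library only. At least 3 members were seen in 25 Dexamethasone nuclei, in 2, 5 and 8 Stress nuclei, and in 0 and 5 Control nuclei. In neuron-like nuclei at least 2 members were seen in 6.45% of 31 Dexamethasone nuclei, in 0%, 1.15% and 0% of Stress nuclei, and in none of 106 and 55 Control nuclei, for which a count of 0 allows shares up to 3.42% and 6.49% (exact 95% bounds). Without thinning, the glia-like shares were 78.9% in Dexamethasone, 30.6%, 54.2% and 50.5% in Stress, and 23.2% and 38.4% in Control.

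Nfkb1 itself was seen after thinning in 50.5% of Dexamethasone glia-like nuclei, in 22.4%, 33.3% and 24.7% of Stress nuclei, and in 33.3% and 25.2% of Control nuclei. The Stress shares thus overlapped the Control shares, although with all nuclei counted every Stress level in CPM lay above both Control levels. Without the richest nucleus of each library, the Stress 1 level lay between the Control levels. The same share in neuron-like nuclei was 9.68% in Dexamethasone, 16.7%, 10.3% and 6.82% in Stress, and 10.4% and 3.64% in Control. Before thinning, the median depths behind the neuron-like shares were 977.5 UMIs in Dexamethasone, 2943, 8433 and 8616 in Stress, and 2792 and 4309.5 in Control.

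The genes whose levels followed Nfkb1 most closely over the 12 sums (6 libraries, glia-like and neuron-like) were Mafk, Plekhg2, Fas, Mt2 and Osmr, with Pearson correlations of log2(CPM + 10) between 0.986 for Mafk and 0.972 for Osmr, among 6774 genes with a mean of at least 20 CPM. For Nfkbia they were Mat2a, Socs3, Gm48742, Egr1 and Zfp36, between 0.973 for Mat2a and 0.965 for Zfp36. These correlations describe sums that share libraries and depth, and they include the difference between the 2 classes.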

How the data were processed

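Single-nucleus RNA sequencing libraries of sorted colon nuclei were analysed from the deposited UMI counts per gene and barcode, made by the authors with Cell Ranger (4.0.0 for Stress and Control, 5.0.1 for Dexamethasone, per the file headers; mm10, and versions written as 5 and 5.0, per the submitters' processing notes). Strand and intron settings are not given in the sources used here. Each library is 1 sample, grouped by its treatment label, and replicates are the labels' numbers.

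Barcodes with at least 300 genes and at most 5% mitochondrial UMIs were kept, and doublets were called per library with scrublet in scanpy 1.11.5. Each nucleus was brought to a total of 10000, values were logged, and 2000 variable genes, 30 principal components, 15 neighbours and Leiden clustering at resolution 1 (leidenalg 0.10.2) gave the clusters. A cluster was named where at least 3 markers of a class were found in at least 10% of its nuclei and its score reached 0.5 for neurons and glia or 1.5 for other classes, limits set after the clusters were seen. Nfkbia and other glucocorticoid targets and immediate early genes were left out of clustering.

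Counts were summed per library and class and tested with edgeR 4.0.16 (filterByExpr, TMM scaling, quasi-likelihood test, Benjamini-Hochberg adjusted p under 0.05; R 4.3.3). Stress was fitted on 5 libraries and Dexamethasone on all 6, and differences between classes used an interaction term with library as a block. The tests were tested on simulated data. The differences between fibroblast-like and glia-like nuclei and between clusters were added after the values were seen. Members and lists were chosen with earlier results of these data known. All 10 members are named, and other pathway genes are named where they passed. Alternatives were DESeq2 1.42.0, other scalings and filters of genes and nuclei, thinning, other cluster resolutions, a replicate block and leaving out each library.

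Replicate numbers 1 and 2 are shared by Stress and Control, but same-numbered libraries did not deviate together, with correlations over genes of -0.15 and -0.02 in glia-like and 0.04 and 0.11 in neuron-like nuclei. Levels are CPM, UMIs scaled to the UMI total of the class, and their intervals and floors cover counting error only.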

Additional observations from a re-analysis of the deposited data

Results flagged for a closer look

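The Dexamethasone effect on Nfkbia differed between glia-like and neuron-like nuclei, by -2.60 on the log2 scale, in the interaction test described above. It was called in 7 of 16 alternatives. Among others, the call was lost by DESeq2, with RLE scaling, after thinning and without the richest nucleus of each library. Between glia-like clusters 1 and 0 the Dexamethasone effect differed by 3.46 for Nfkb1, 4.38 for Relb and 3.13 for Birc3, also by an interaction test.

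Barcodes left out for mitochondrial transcripts, which enter the results above only where the mitochondrial filter was left off, also carried member transcripts when assigned to glia-like nuclei by their 15 nearest kept nuclei. The Dexamethasone values of 8 members, and the Stress values named for 5 of them, were noted because their counting intervals lay above those of the same barcodes in both Control libraries. Nfkb1 stood at 1780 CPM (1779.6) in the Dexamethasone library and at 451, 465 and 474 CPM in Stress 1, 2 and 3 (noted for Stress 2 and 3), against 352 and 369 CPM in Control 1 and 2. Birc3 stood at 550.1 CPM in Dexamethasone and at 175, 156 and 149 CPM in Stress 1, 2 and 3 (all noted), against 56.1 and 88.9 CPM in Control. Relb had 154 CPM in Dexamethasone and 107, 74.4 and 61.7 CPM in Stress 1, 2 and 3 (noted for Stress 1), against 44.9 and 66.4 CPM in Control. Rela had 129 CPM in Dexamethasone and 77.1, 74.4 and 81.4 CPM in Stress 1, 2 and 3 (noted for Stress 3), against 43.5 and 47.0 CPM in Control. Tnfaip3 had 138 CPM in Dexamethasone and 54.2, 45.0 and 37.0 CPM in Stress, against 21.0 and 28.6 CPM in Control. The chemokines Cxcl1 and Cxcl2 had 78.6 and 75.1 CPM in Dexamethasone. Stress 1, 2 and 3 had 20.5, 22.5 and 40.7 CPM of Cxcl1 and 16.9, 12.1 and 2.47 CPM of Cxcl2, and Control 12.6 and 19.4 CPM of Cxcl1 and 0 and 6.13 CPM of Cxcl2. Icam1, which did not pass in kept glia-like nuclei, had 73.3 CPM in Dexamethasone and 25.3, 13.8 and 13.6 CPM in Stress 1, 2 and 3 (noted for Stress 1), against 5.61 and 6.13 CPM in Control.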

How the results depend on the processing

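With Dexamethasone, against Control and against Stress, Nfkb1 and Birc3 of glia-like nuclei were called in all 19 alternatives for the whole class. Against Control, 3 members were called by DESeq2, 4 after thinning to equal totals and 2 under a stricter filter of nuclei, and 0, 3 and 2 in clusters 0, 1 and 9 alone, where cluster 0 turned Nfkb1 (-0.96), Relb (-2.39), Birc3 (-1.32) and Nfkbia (-0.14). Over all genes, calls fell to 211 with DESeq2, 241 under the stricter filter, and ranged from 312 (without Control 2) to 491 with a library left out. Against Stress, 2 members were called by DESeq2, after thinning and under the stricter filter. For Stress in glia-like nuclei, 1 member was called with no mitochondrial filter, genes called ranged from 35 to 174 with a library left out, with 32 under the stricter filter, 277 with no mitochondrial filter and 254 without Control 1 and Stress 1, and Nfkbia turned to 0.55 under the stricter filter and ranged from -0.72 to 0.22 (without Control 2) with a library left out. In neuron-like nuclei with Dexamethasone, no member was called (0) by DESeq2, after thinning, under the stricter filter, at Leiden resolutions 0.5 and 1.5, without top nuclei, with the Penk cluster added, or without either Control library, and 4 were called with no mitochondrial filter (3 against Stress). The 4 calls in neuron-like nuclei stand without the share of all genes called in that setting, as do most member counts here. Nfkb1 turned to -0.99 under the stricter filter and, for Stress, ranged from -0.060 (without Control 2) to 0.70 with a library left out. Rela turned sign for Stress with no mitochondrial filter (0.22), without Control 1 and Stress 1 (0.74), and without top nuclei (0.014), ranging from -0.61 to 0.71 (without Control 1) with a library left out, and for Dexamethasone at resolutions 0.5 (0.26) and 1.5 (0.30), with no mitochondrial filter (0.40), without Control 1 and Stress 1 (0.76) and with the Penk cluster (0.26). The glia-neuron difference with Dexamethasone had 0 called members by DESeq2, RLE scaling, thinning, doublets kept, both resolutions and without top nuclei, 2 under the stricter filter, and 0 to 2 when libraries were left out. In fibroblast-like nuclei, Stress had 0 called members by DESeq2, under the stricter filter and without top nuclei, 1 after thinning, with a replicate block and with no mitochondrial filter, and 0 to 2 with a library left out. Dexamethasone there had 0 by DESeq2, under the stricter filter, with the replicate block and without either Control library, and 3 without any 1 Stress library. The libraries share only a number. With the replicate block, genes called in neuron-like nuclei were 75 for Stress and 202 for Dexamethasone against Control, and 81 for Dexamethasone against Stress, and in glia-like nuclei against Stress Relb lost its call (0.97, adjusted p = 0.292) and Nfkbia gained one (1.38, adjusted p = 0.0176), all in edgeR. Between clusters 1 and 0, 1 member (Nfkb1) was called by DESeq2 and without either Control library, and Nfkbia turned to -0.12 after thinning. Thinned to 500 UMIs, glia-like nuclei with Nfkb1 made up 13.7%, 24.6% and 17.9% in Stress 1, 2 and 3, and 16.3% and 10.9% in Control 1 and 2. The causes of these changes were not tested. A single Dexamethasone library, 2 Control libraries and few UMIs of Nfkb2, Cxcl1, Cxcl2 and Icam1 limit what can be called. In simulated glia-like counts, 15% of genes changed 2-fold and 74% changed 4-fold were recovered for Dexamethasone. The changed genes were drawn without the lowest levels of the genes tested, so recovery at those levels was not measured.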

Other observations

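In cluster 17, an unnamed cluster led by the immune genes Dock2, Ptprc and F13a1, Birc3 had 12, 26 and 8 UMIs in Stress 1, 2 and 3 (17, 25 and 19 nuclei), 6 in the Dexamethasone library (5 nuclei) and none in Control 1 and 2 (6 and 4 nuclei). Nfkb1 had 11, 29 and 18 UMIs there in Stress, 19 in Dexamethasone, and 1 and 2 in Control. In cluster 12, an unnamed cluster led by Psca whose nuclei were shallow, Nfkbia had 76 UMIs in 17 Dexamethasone nuclei, 0, 4 and 9 in Stress 1, 2 and 3 (2, 9 and 40 nuclei), and 0 and 5 in Control 1 and 2 (3 and 42 nuclei). These clusters had too few nuclei in some libraries for a test.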
